A study of Homo sapiens with 4 samples.

Results

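The class III receptor tyrosine kinases FLT3, KIT, CSF1R, PDGFRA and PDGFRB were examined in MV4-11R and MV4-11 cells. The members were taken by gene name, and all 5 were measured among 18417 genes. Each had 1 probe set of its own. MV4-11R is a drug-resistant line that was grown out of MV4-11 during 3 months of culture with rising amounts of PKC412 (midostaurin), a tyrosine kinase inhibitor. MV4-11 is the drug-sensitive parent, a human acute myeloid leukaemia line known for a rearranged MLL gene and for FLT3 with an internal tandem duplication, a mutation that activates the kinase. Both lines therefore derive from the same mutated background, and the labels also give EZH2 expression as low in MV4-11R and high in MV4-11. Each line had 2 arrays. Whether MV4-11R is 1 clone, and whether PKC412 was present at harvest, is not given in the sources used here.

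Receptors of this class sit in the plasma membrane, bind a dimeric growth factor with immunoglobulin-like domains outside the cell and carry a kinase domain split by an insert inside it. FLT3 and KIT serve blood stem and progenitor cells, CSF1R serves monocytes and macrophages, and the PDGF receptors serve mesenchymal cells. Ligand binding brings a pair of receptors together, after which phosphorylated tyrosines recruit adaptors that feed the RAS-MAPK, PI3K and STAT pathways. An internal tandem duplication keeps FLT3 active without ligand, and midostaurin blocks FLT3 together with KIT, the PDGF receptors and other kinases.

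Values are log2 RMA signals per array, on which 1 unit is a doubling, and differences are MV4-11R minus MV4-11. They were tested with limma across all genes, with Benjamini-Hochberg adjusted p under 0.05 as the threshold. Background was gauged from 361 olfactory receptor genes, which blood cells mostly lack. Their median signal was 4.91, and their 95th percentile, 6.28, is called the background guide here. Median signal lay between 6.75 and 6.78 on the 4 arrays. In all 1458 genes rose and 1314 fell. Levels of different genes come from different probes and are not ranked against each other. No label states that the replicates were grown separately. The p-values thus rest on array-to-array spread that may be only technical.

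The pair of receptors read well above the guide, FLT3 and CSF1R, both fell in MV4-11R, while KIT, PDGFRA and PDGFRB did not pass the test. Thus 2 of 5 receptors fell and 0 rose by limma (0 also higher at an unadjusted p under 0.05), where 7.13% of all genes fell and 7.92% rose. The median difference of the 5 was -0.23, which is the value of KIT, and that of all genes was 0.007. Olfactory receptor genes, which gauge background, had a median difference of -0.14.

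FLT3 (Entrez gene 2322, chromosome 13), the mutated kinase of this leukaemia, had log2 signals of 10.89 and 10.77 on the MV4-11R arrays and 11.74 and 11.77 on the MV4-11 arrays. Both MV4-11R arrays lay below both MV4-11 arrays, as for 26.0% of all genes, and the arrays of each line lay close together. The means were 10.83 ± 0.084 in MV4-11R and 11.76 ± 0.021 in MV4-11 (SD, n = 2 each). This was a 1.90-fold fall, with a difference of -0.93 (SE 0.11, 95% interval -1.20 to -0.66) and an adjusted p of 0.00526. FLT3 in MV4-11R remained far above the background guide. The probe set reads FLT3 RNA as a whole and does not show the duplication.

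CSF1R (Entrez gene 1436, chromosome 5), the receptor of the macrophage growth factors CSF1 and IL34, had signals of 8.33 and 8.96 on the MV4-11R arrays and 10.15 and 10.60 on the MV4-11 arrays. Both MV4-11R arrays were again below both MV4-11 arrays, as for 26.0% of all genes. The arrays within each line lay further apart than for FLT3. CSF1R averaged 8.65 ± 0.45 in MV4-11R and 10.37 ± 0.32 in MV4-11 (SD, n = 2 each). Its difference was -1.73 (SE 0.25, 95% interval -2.33 to -1.13, adjusted p = 0.00939), a 3.31-fold fall. The 95% intervals of the CSF1R and FLT3 differences overlapped, and whether one fell more than the other was not tested. The falls of both receptors passed the test under each of the 12 alternatives tried, including the removal of any 1 array. In these bulk samples, fewer cells with a transcript and less of it per cell cannot be told apart.

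KIT (Entrez gene 3815, chromosome 4), the receptor of stem cell factor, read 4.69 and 4.59 in MV4-11R and 4.73 and 5.02 in MV4-11. All 4 values were near the median of the olfactory receptor genes. The difference was -0.23 (SE 0.14, 95% interval -0.57 to 0.10, adjusted p = 0.335). Both MV4-11R arrays were below both MV4-11 arrays, which was also true of 26.0% of all genes.

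PDGFRA (Entrez gene 5156, chromosome 4), which binds PDGF-A, PDGF-B and PDGF-C chains, read 5.21 and 4.98 in MV4-11R and 4.94 and 4.89 in MV4-11. It too stayed under the background guide on every array. The difference of 0.18 (SE 0.12, 95% interval -0.13 to 0.48) did not pass, with an adjusted p of 0.438. Both MV4-11R arrays were above both MV4-11 arrays, as for 29.6% of all genes.

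PDGFRB (Entrez gene 5159, chromosome 5), which binds PDGF-B and PDGF-D, read 6.57 and 6.56 in MV4-11R and 6.56 and 6.75 in MV4-11. The lines overlapped, and all values were just above the guide. MV4-11R minus MV4-11 came to -0.10 (SE 0.12, 95% interval -0.38 to 0.19), with an adjusted p of 0.692. A second probe set assigned to both PDGFRB and the transcription factor gene EBF1 was left out of the test. It read 6.04 and 5.70 in MV4-11R and 6.23 and 6.14 in MV4-11. RMA compresses differences of dim genes, so the intervals of KIT, PDGFRA and PDGFRB bound a change in signal and not a change in RNA.

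**Figure D1:**
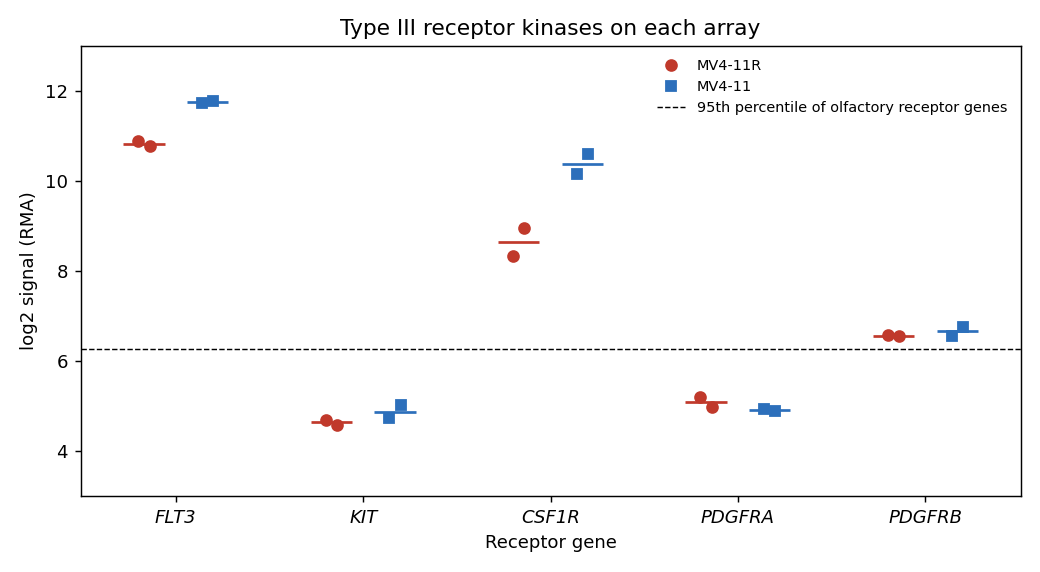
Log2 RMA signal of the 5 receptor genes on each array, with MV4-11R as circles and MV4-11 as squares, bars at the mean of the 2 arrays and a dashed line at 6.28, the 95th percentile of olfactory receptor genes. FLT3 and CSF1R were lower on both MV4-11R arrays and far above the line, KIT and PDGFRA lay under it on all 4 arrays, and PDGFRB lay just above it. Of all genes 26.0% were lower on both MV4-11R arrays than on both MV4-11 arrays.

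The 5 genes lie at 3 places in the genome, each formed by an ancient duplication that left related receptors side by side. PDGFRA and KIT are next to each other on chromosome 4 with the VEGF receptor gene KDR beyond KIT, CSF1R and PDGFRB are next to each other on chromosome 5, and FLT3 is close to the VEGF receptor gene FLT1 on chromosome 13. In this order of measured genes, taken from RefSeq, no near neighbour of CSF1R was called lower. Among its 10 nearest measured genes 0 fell and 1 rose by limma, 0 were lower at an unadjusted p under 0.05, and the median difference was -0.05. By limma 7.13% of all genes fell and 7.92% rose. PDGFRB was the next gene on one side, and HMGXB3, on the other side, had a difference of 0.15 (SE 0.11, adjusted p = 0.451). The gene that rose was TIGD6, with 6.64 and 6.71 in MV4-11R and 5.95 and 6.20 in MV4-11, where it lay under the guide (difference 0.61, adjusted p = 0.0296). It was called with all 4 arrays but not without MV4-11R replicate 1 (adjusted p = 0.0714), MV4-11R replicate 2 (0.0814) or MV4-11 replicate 1 (0.129).

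Of the 10 nearest measured genes of FLT3, 2 fell by limma, where 7.13% of all genes fell. Both lay on the same side, and the difference between the sides was not tested. On the side of lower coordinates the 5 nearest measured genes had a median difference of 0.11, and the adjacent gene URAD read 6.99 and 6.83 in MV4-11R and 6.79 and 7.23 in MV4-11. On the other side the median of 5 was -0.31, which is the value of FLT1, a gene under the guide on all 4 arrays. There the adjacent gene PAN3, a subunit of a deadenylase that shortens mRNA tails, read 11.15 and 10.94 in MV4-11R and 11.57 and 11.91 in MV4-11, a fall by 0.69 log2 units at an adjusted p of 0.0356. The lysosomal transporter gene SLC46A3 fell 2.57-fold (adjusted p = 0.00742), with 7.63 and 7.49 in MV4-11R and 8.68 and 9.16 in MV4-11. FLT1 and POMP, which lie between PAN3 and SLC46A3, did not pass, with differences of -0.31 and 0.03. POMP was chosen after its value was seen, to complete the order. The PAN3 call was lost without MV4-11R replicate 1 (0.0537), MV4-11R replicate 2 (0.102) or MV4-11 replicate 2 (0.122).

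The median difference over chromosome 13 was -0.19 across 317 genes, against 0.02 over 710 genes of chromosome 4 and -0.01 over 783 genes of chromosome 5. Over the 15 nearest neighbours on each side with a level above the median of all genes, the median difference was -0.05 around FLT3, 0.01 around CSF1R, 0.08 around KIT and PDGFRA, and -0.01 around PDGFRB. With that shift taken off, FLT3 was at -0.88 (adjusted p = 0.00713) and CSF1R at -1.74 (adjusted p = 0.0099). Gene copy number was not analysed here.

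**Figure D2:**
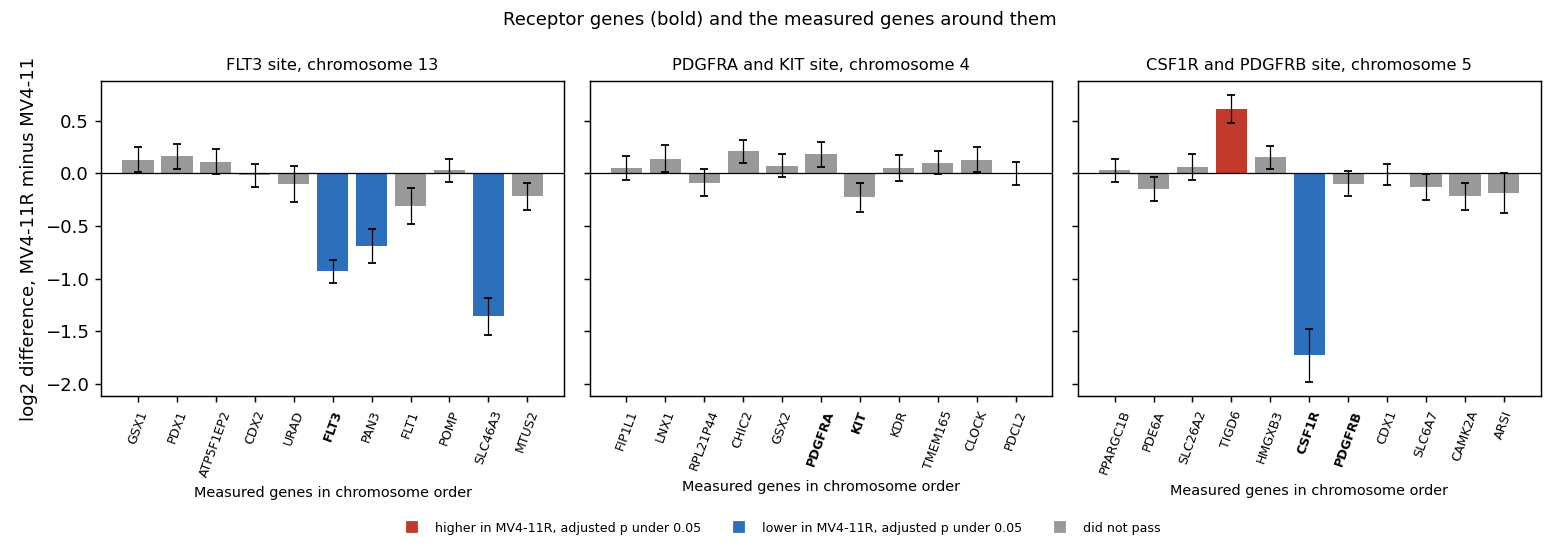
Log2 difference, MV4-11R minus MV4-11, of FLT3, of PDGFRA with KIT, and of CSF1R with PDGFRB, each panel with 5 measured genes on either side of FLT3, PDGFRA or CSF1R in chromosome order; bars are coloured by the limma call and whiskers are 1 standard error. CSF1R was the one gene of its panel that fell, whereas FLT3, PAN3 and SLC46A3 fell with FLT1 and POMP between the last pair.

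The promoters of FLT3 and CSF1R are shown because these 2 receptors fell, and that of PDGFRB because it lies beside CSF1R and did not pass the test. All 5 receptors matched the RefSeq promoter table (GRCh38.p14), which holds 7 windows for them, each of 250 bases before and 50 after an annotated start site. RefSeq gives CSF1R 2 start sites, and the array does not tell which one was used. Capitals mark GAGGAA, a core bound by the myeloid factor PU.1, and TGNGGT, a core bound by RUNX factors, on either strand, and the motifs do not overlap each other here. The sequences run 5′ to 3′ on the strand of the gene.
FLT3, chr13:28100527-28100826, minus strand: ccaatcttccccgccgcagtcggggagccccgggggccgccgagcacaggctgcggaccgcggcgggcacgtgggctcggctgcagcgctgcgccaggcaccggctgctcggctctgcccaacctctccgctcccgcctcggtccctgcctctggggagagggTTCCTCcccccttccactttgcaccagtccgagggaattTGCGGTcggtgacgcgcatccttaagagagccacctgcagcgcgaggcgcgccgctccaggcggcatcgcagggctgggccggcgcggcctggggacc
CSF1R start nearer the coding sequence, chr5:150086505-150086804, minus strand: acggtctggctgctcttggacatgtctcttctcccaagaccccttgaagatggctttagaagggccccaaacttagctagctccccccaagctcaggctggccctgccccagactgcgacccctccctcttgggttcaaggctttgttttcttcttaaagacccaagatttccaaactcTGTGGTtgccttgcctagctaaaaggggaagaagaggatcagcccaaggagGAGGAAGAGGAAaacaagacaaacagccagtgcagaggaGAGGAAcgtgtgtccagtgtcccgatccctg
CSF1R upstream start, chr5:150113316-150113615, minus strand: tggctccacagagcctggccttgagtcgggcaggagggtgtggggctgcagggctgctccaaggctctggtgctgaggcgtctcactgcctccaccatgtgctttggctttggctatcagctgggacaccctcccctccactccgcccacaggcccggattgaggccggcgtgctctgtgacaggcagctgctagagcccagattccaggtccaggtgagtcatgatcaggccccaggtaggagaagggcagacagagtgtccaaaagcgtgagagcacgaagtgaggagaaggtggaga
PDGFRB, chr5:150155796-150156095, minus strand: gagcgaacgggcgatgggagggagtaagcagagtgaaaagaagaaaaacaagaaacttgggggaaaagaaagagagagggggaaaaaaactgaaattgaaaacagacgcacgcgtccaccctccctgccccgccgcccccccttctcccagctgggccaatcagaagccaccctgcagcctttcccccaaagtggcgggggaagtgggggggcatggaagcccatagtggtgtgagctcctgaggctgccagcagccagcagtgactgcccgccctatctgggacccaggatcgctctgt

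The CSF1R window nearer the coding sequence held GAGGAA 3 times, at -20 to -15, -14 to -9 and 20 to 25 from the start site, and TGNGGT once, at -71 to -66. The FLT3 window held GAGGAA once, on the opposite strand at -87 to -82, and TGNGGT once, at -48 to -43. No match to either was found in the upstream CSF1R window or in the windows of KIT, PDGFRA and PDGFRB. Of 35116 promoter windows of this length 27.9% held GAGGAA and 43.2% held TGNGGT, and 0.649% held GAGGAA at least 3 times. The windows also differed in base composition. That of FLT3 was 74.0% G and C with 34 CpG dinucleotides, and the CSF1R window with the matches was 54.0% G and C with 4, against medians of 58.7% and 14 over all windows. The KIT window was close to that of FLT3, at 74.3% with 38. The upstream CSF1R window had 62.3% with 8, and that of PDGFRB 59.3% with 11. The PDGFRA windows had 47.0% with 8 and 66.7% with 32. A match is a run of letters and not a measured binding site.

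Among factors known to act on FLT3 or CSF1R, the gene of PU.1 itself, SPI1, read 11.34 and 11.47 in MV4-11R and 11.37 and 11.52 in MV4-11, with overlapping lines and a difference of -0.04 (SE 0.12, adjusted p = 0.889). SPI1 and RUNX1 (difference 0.28, adjusted p = 0.235) were picked after their values were seen, because the motifs refer to them. IRF8, which directs progenitors to the monocyte lineage, read 10.33 and 10.51 in MV4-11R and 11.90 and 11.86 in MV4-11. It fell 2.75-fold (difference -1.46, SE 0.12, adjusted p = 0.00192). The ETS factor ETS2 fell 1.64-fold (adjusted p = 0.0109), and CEBPB, a factor of macrophages and of stress responses, rose 1.66-fold (adjusted p = 0.0116). Of 11 measured factors 1 rose, 2 fell and 8 did not pass, with a median difference of 0.04. The passing share was 27.3%, against 15.1% of all genes.

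Of the 8 ligands 1 rose, 1 fell and 6 did not pass, with a median difference of -0.07. By limma 15.1% of all genes passed, and whether the ligands as a list differ from that share was not tested. CSF1, a ligand of CSF1R, read 7.70 and 7.76 in MV4-11R and 7.18 and 7.02 in MV4-11. Thus CSF1 was higher on both arrays of the line in which its receptor was lower, and 29.6% of all genes were higher on both MV4-11R arrays. It rose 1.55-fold (difference 0.63, SE 0.11, adjusted p = 0.0184). This call was lost without MV4-11R replicate 1 (0.0510), MV4-11R replicate 2 (0.0521) or MV4-11 replicate 2 (0.0825), with the difference between 0.55 and 0.71. IL34, the other ligand of CSF1R, had a difference of 0.04 (SE 0.12, adjusted p = 0.871).

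PDGFC, whose product binds PDGF receptor alpha, read 4.70 and 4.95 in MV4-11R and 6.71 and 6.82 in MV4-11. It passed the guide in MV4-11 and lay under it in MV4-11R, so the 3.84-fold fall (difference -1.94, SE 0.13, adjusted p = 0.00146) is not exact. PDGFD, which binds the beta receptor, was under the guide on all 4 arrays, with 4.78 and 4.56 in MV4-11R and 5.15 and 5.71 in MV4-11 (difference -0.76, SE 0.20, adjusted p = 0.0554). It passed with each array centred on its median (0.0237), with the shift of its neighbours taken off (-0.99, adjusted p = 0.0272) and without MV4-11 replicate 1 (-1.04, adjusted p = 0.0169), and was at -0.48 without MV4-11 replicate 2. PDGFA and PDGFB had differences of -0.20 (adjusted p = 0.386) and -0.05 (adjusted p = 0.863).

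FLT3LG, which encodes the ligand of FLT3, read 9.51 and 9.43 in MV4-11R and 9.06 and 9.06 in MV4-11. Both MV4-11R arrays were higher, as for 29.6% of all genes. The difference of 0.40 (SE 0.11, 95% interval 0.14 to 0.66) missed the threshold with an adjusted p of 0.0550. It passed when genes under the 25th percentile of level were left out (0.0442) and with the replicate number as a block (0.0496), but with the shift of its chromosomal neighbours taken off the difference was 0.11 (adjusted p = 0.544). KITLG, the ligand of KIT, was under the guide, with 3.61 and 3.56 in MV4-11R and 3.75 and 3.62 in MV4-11. The related VEGF receptors FLT1, KDR and FLT4 did not pass, at -0.31, 0.05 and 0.09 with adjusted p of 0.299, 0.868 and 0.779 and 0 of 3 at an unadjusted p under 0.05, and FLT1 and KDR were under the guide on every array.

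**Figure D3:**
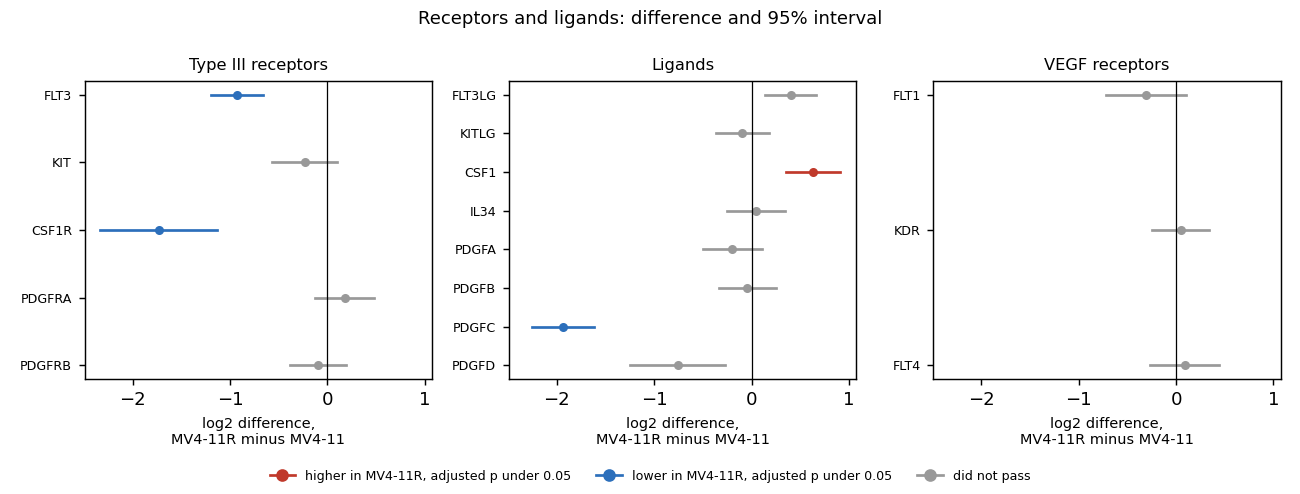
Log2 difference, MV4-11R minus MV4-11, as points with 95% intervals from limma, for the 5 receptors, their 8 ligands and 3 VEGF receptors, coloured by the call. FLT3, CSF1R and PDGFC lay below zero and CSF1 above it past the threshold, while the other intervals belong to genes that did not pass.

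Inside the cell, the adaptors and transducers of activated receptors gave 1 call. Among 16 measured genes, 1 fell, 0 rose and 15 did not pass, a share of 6.25% where 15.1% of all genes passed, with a median difference of -0.11. At an unadjusted p under 0.05, 1 was higher and 3 were lower. The gene that fell was GAB1, a docking protein that recruits PI3K and the phosphatase SHP2. It read 6.76 and 6.81 in MV4-11R and 8.27 and 8.78 in MV4-11, a 3.35-fold fall (difference -1.75, SE 0.18, adjusted p = 0.00372). These values are of its brightest probe set, and with the mean of its probe sets the difference was -0.85 (adjusted p = 0.0153).

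Of 14 measured negative regulators 1 rose, 2 fell and 11 did not pass, with a median difference of -0.01. That share of 21.4% is near the 15.1% of all genes. Both ubiquitin ligases that mark activated receptors for degradation were lower. CBL read 10.16 and 10.29 in MV4-11R and 10.79 and 10.84 in MV4-11, a 1.51-fold fall (adjusted p = 0.0204). CBLB read 8.09 and 8.40 in MV4-11R and 8.98 and 9.37 in MV4-11, a 1.90-fold fall (adjusted p = 0.0217). The tyrosine phosphatase PTPN2 rose 1.59-fold (adjusted p = 0.0424), with 8.70 and 8.28 in MV4-11R and 7.81 and 7.84 in MV4-11.

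None of these 3 calls held under every alternative. Without MV4-11R replicate 1 the adjusted p was 0.0771 for CBL, 0.0687 for CBLB and 0.112 for PTPN2, and without MV4-11 replicate 2 it was 0.0837, 0.0630 and 0.104. Without MV4-11 replicate 1 it was 0.0692 for CBL and 0.122 for PTPN2. With the shift of their chromosomal neighbours taken off, CBLB was at -0.42 (adjusted p = 0.169) and PTPN2 at 0.32 (adjusted p = 0.231).

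Genes that report signalling below the receptors changed in both directions, with more rises than falls. The MAPK output list had 7 rises, 1 fall and 8 members that did not pass among 16, and a median difference of 0.73. The STAT5 output list had 3 rises, 1 fall and 9 that did not pass among 13, a share of 30.8% passing. Its median was 0.22. By limma 7.92% of all genes rose, 7.13% fell and 15.1% passed. Whether the lists differ from these shares was not tested. The feedback inhibitor SPRY1, which acts on receptor signalling to RAS, read 8.19 and 8.13 in MV4-11R and 6.89 and 6.78 in MV4-11 (difference 1.33, SE 0.11, adjusted p = 0.00209). The cyclin gene CCND2, a STAT5 target, read 11.50 and 11.67 in MV4-11R and 10.46 and 10.53 in MV4-11 (difference 1.09, SE 0.12, adjusted p = 0.00404). ETV4 (1.23) and ID1 (1.06) were the other largest rises of the MAPK and STAT5 lists, and both calls were lost without MV4-11 replicate 1 (adjusted p = 0.0700 and 0.0720) and without MV4-11 replicate 2 (0.120 and 0.0735). ETV4 also lost its call without MV4-11R replicate 1, at 0.75 (adjusted p = 0.0504). With the shift of their neighbours taken off the adjusted p was 0.0556 for ETV4 and 0.0699 for ID1. The falls were of DUSP4, a MAP kinase phosphatase (2.01-fold, adjusted p = 0.0122), and of the repressor BCL6 (difference -1.99, adjusted p = 0.00159), which lay under the guide in MV4-11R. The lists do not separate genes that a pathway raises from genes that it lowers, so a fall is not a sign of less signalling. RNA of these genes is not a measure of kinase activity, and phosphorylation was not analysed here.

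**Figure D4:**
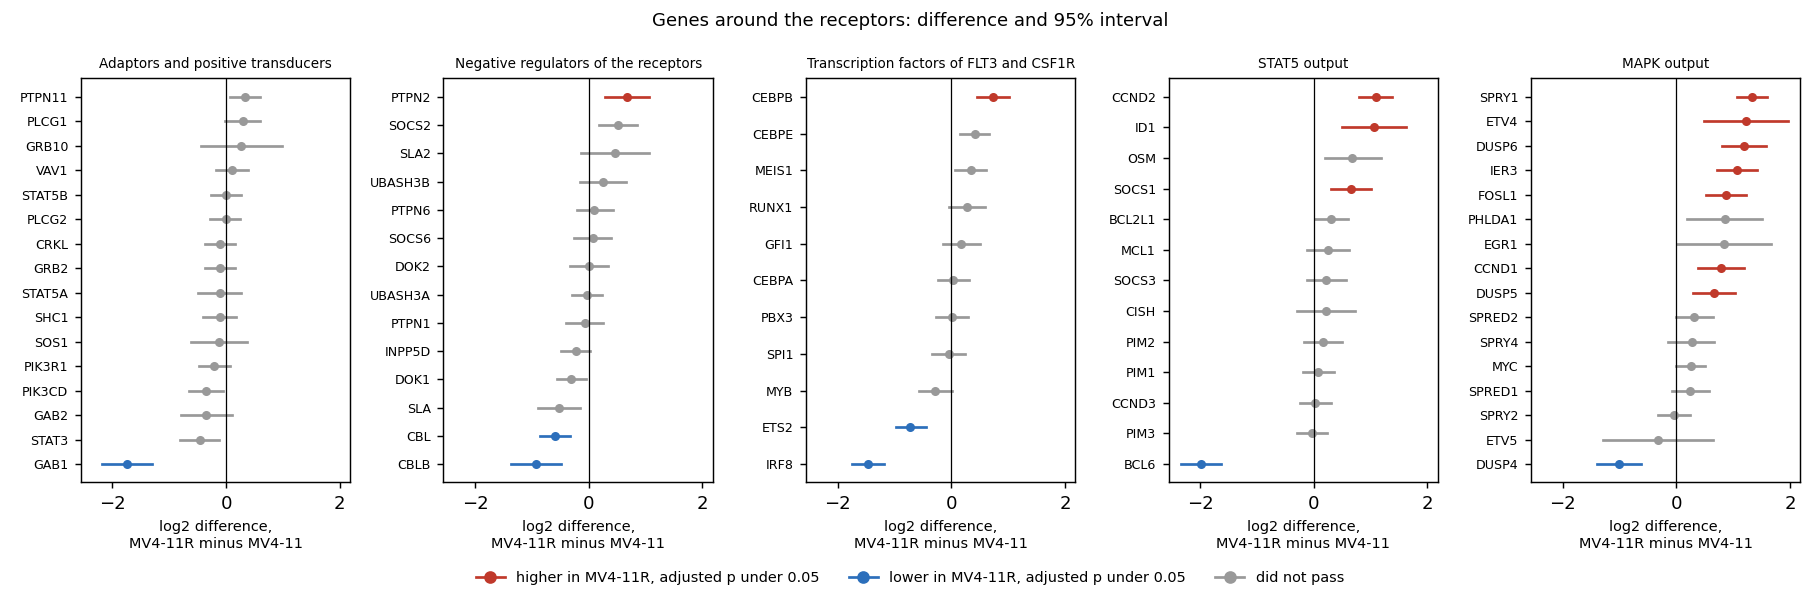
Log2 difference, MV4-11R minus MV4-11, as points with 95% intervals for genes of 5 groups around the receptors, sorted within each panel and coloured by the call. Most adaptors lay near zero apart from GAB1, and 7 of 16 MAPK output genes lay above zero past the threshold. Of all genes 7.92% rose.

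The lines are labelled acute myeloid leukaemia, and some monocytic markers were bright while others were not. LYZ, CST3 and CD68 read between 11.72 and 12.64 on the 4 arrays. CD14, a surface marker of monocytes, read 7.24 and 6.49 in MV4-11R and 6.05 and 6.13 in MV4-11, where it was under the guide (difference 0.77, adjusted p = 0.0855). It passed without MV4-11R replicate 2 (1.15, adjusted p = 0.00722) and was at 0.40 without MV4-11R replicate 1. CD163, a marker of mature macrophages, was under the guide on all 4 arrays. CST3, CD68, CD14 and CD163 were chosen after their values were seen. Of 10 measured markers 0 rose, 2 fell and 8 did not pass by limma, a share of 20.0% against the 15.1% of all genes, with 1 higher and 4 lower at an unadjusted p under 0.05. The fatty acid receptor CD36 fell 6.53-fold (adjusted p = 0.00217), with 5.27 and 5.69 in MV4-11R and 7.89 and 8.48 in MV4-11. It lay under the guide in MV4-11R, so that fold is not exact. The lysozyme gene LYZ fell 1.61-fold (adjusted p = 0.0192), a call lost without MV4-11R replicate 2 (0.0542) or MV4-11 replicate 2 (0.0780). Summed over the 10 markers, linear signal was 16803 to 19587 in MV4-11R and 21648 to 23822 in MV4-11. The brightest markers weigh most in such a sum, and 8 of the 10 did not pass. The part of monocytic genes in the fall of CSF1R was not tested.

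Markers were also read for mast cells, in which KIT is usually abundant, for fibroblasts and pericytes, in which PDGF receptors are, and for endothelial cells. The test was passed by 1 of 4 mast cell, 1 of 8 fibroblast and pericyte, and 0 of 6 endothelial genes. Of all genes 15.1% passed. Of 4 measured mast cell markers the chymase gene CMA1 fell (difference -0.71, adjusted p = 0.0265) while under the guide on all arrays, and 3 did not pass. Of 8 fibroblast and pericyte markers LUM rose (difference 0.55, adjusted p = 0.0463), also under the guide, and 7 did not pass, with a summed linear signal of 680 to 699 in MV4-11R and 674 to 676 in MV4-11. The CMA1 call was lost without MV4-11R replicate 1 (0.0855) or MV4-11 replicate 1 (0.102), and the LUM call without any 1 of the 4 arrays (0.0537 to 0.197). Of 6 endothelial markers 0 passed by limma and 1 was higher at an unadjusted p under 0.05. It was PECAM1, which leukocytes also carry, with 10.64 and 11.20 in MV4-11R and 10.03 and 10.34 in MV4-11 (difference 0.74, adjusted p = 0.0707). It passed with the replicate block (0.0131), with array centring (0.0496) and without MV4-11R replicate 1 (1.02, adjusted p = 0.0237), and was at 0.45 without MV4-11R replicate 2.

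The genes of most similar pattern were found by the root mean square difference of the 4 array values after each gene was centred on its mean, among genes above the median level. For FLT3 they were NENF, DIS3 and FZD2, at 0.017, 0.032 and 0.033 log2 units. DIS3 lies on chromosome 13 too, and its difference of -0.94 turned to 0.11 with the regional shift taken off. NENF read 8.40 and 8.30 in MV4-11R and 9.30 and 9.31 in MV4-11. For CSF1R they were PDE4DIP, RNASE6 and CKB, at 0.095, 0.10 and 0.13, and 1 gene lay within 0.1 of CSF1R where 78 lay within 0.1 of FLT3. RNASE6 read 7.80 and 8.57 in MV4-11R and 9.68 and 9.93 in MV4-11. For the 3 dim receptors the genes of closest pattern did not pass by limma. They were picked to match the receptor's own 4 values, so this is not a separate result. They were LRCH4 (0.0073), HCG27 and PANX2 for KIT, C16orf54 (0.0099), GGA1 and DENND4B for PDGFRA, and CCDC93 (0.0036), SNUPN and FIG4 for PDGFRB. Such matches were common, with 476 genes within 0.1 of KIT, 1200 of PDGFRA and 1485 of PDGFRB.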

How the data were processed

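RNA was measured on Affymetrix gene arrays, 2 of MV4-11R and 2 of MV4-11. The values deposited by the authors are log2 signals, 1 per probe set on each array. The submitters' processing notes name RMA and Affymetrix Expression Console as the tools, and their versions are not given in the sources used here. The log2 scale was read from the values. RMA includes background correction, quantile normalization and a summary of probes. Arrays give no counts, and their number limits the precision.

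Of 33297 probe sets, 19460 had 1 gene in the platform annotation, 1754 had several and 12083 were not listed. Symbols were updated by Entrez ID in a RefSeq table (GRCh38.p14), which also gave chromosome order. No genome build is named for the array, so its coordinates are not given. The brightest probe set was kept for the 769 genes with several, leaving 18417 genes with no filter on level. Some listed genes are not analysed here.

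A linear model with 1 term for the line was fitted in limma 3.58.1 under R 4.3.3 (functions lmFit and eBayes). Tests were 2-sided and p-values were adjusted over all genes by Benjamini-Hochberg. Residual degrees of freedom were 2, or 6.06 once the prior was added. The fit was tested on simulated data. Folds are 2 to the power of the log2 difference. Arrays correlated at 0.993 within MV4-11R, at 0.994 within MV4-11 and at 0.968 to 0.974 between lines, across genes.

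The receptors and gene lists were chosen with earlier results of these data known. Named were the receptors, all ligands and VEGF receptors, up to 2 rises and 2 falls per list (or the member of largest difference), adjacent genes, passing genes among the 5 nearest on each side, and the 3 most similar genes per receptor. The VEGF receptor, STAT5, MAPK and marker lists were treated alike. Alternatives were centring, quantile normalization, a level filter, single probe sets, their mean, a variance trend, the replicate block, removal of the regional shift and leaving out each array.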

Additional observations from a re-analysis of the deposited data

How the results depend on the processing

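FLT3 and CSF1R kept their direction and passed the test in each of the 12 alternatives, FLT3 at -0.99 to -0.87 (adjusted p = 0.00256 to 0.0267) and CSF1R at -2.04 to -1.41 (adjusted p = 0.00165 to 0.0429). KIT (-0.38 to -0.09) and PDGFRA (0.06 to 0.29) kept their direction without passing in 11 each, since the level filter leaves both out. PDGFRB ran from -0.19 to 0.00052, the last without MV4-11 replicate 2, where the direction reversed. The titles number the replicates 1 and 2 in both lines without calling that a shared batch. Deviations of same-numbered arrays from their group means correlated at 0.262 across genes. With the replicate block CSF1R had an adjusted p of 0.00165 and FLT3 of 0.00554, and 1926 genes were higher and 1716 lower. Leaving out 1 array gave 713 to 1239 genes higher and 792 to 1240 lower, with fewer samples in the fit. Testing every probe set on its own gave 755 higher and 750 lower among 33297. There the calls of RNASE6 (adjusted p = 0.0511), CSF1 (0.0582), LYZ (0.0619), PDE4DIP (0.0658), TIGD6 (0.0829), ID1 (0.0938), PAN3 (0.0976) and ETV4 (0.126) were lost. Those of CBL (0.0616), CBLB (0.0723), CMA1 (0.0795), PTPN2 (0.111) and LUM (0.114) were lost too. For the other 58 named genes, 613 of 688 values kept direction and call, 47 lost the call, 9 gained it and 19 reversed. Those that reversed with the regional shift taken off were PDGFB (0.02), KDR (-0.03), GSX2 (-0.01), SPI1 (0.05) and DIS3 (0.11), and POMP reversed with array centring (-0.0012). With 1 array left out, IL34 ran from -0.06 to 0.15, PDGFB from -0.13 to 0.03, KDR from -0.06 to 0.15, FLT4 from -0.05 to 0.22, URAD from -0.32 to 0.12, CDX1 from -0.03 to 0.01, SPI1 from -0.11 to 0.03, POMP from -0.0023 to 0.07 and CD68 from -0.19 to 0.38. The cause was not tested. Signals near the background guide of 6.28 limit what can be said of KIT, PDGFRA, PDGFRB, PDGFC and PDGFD.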
